A study of Mus musculus with 8 samples.

Results

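Eicosanoids are signalling lipids made from arachidonic acid, and 10 genes of their synthesis and breakdown were followed across 4 mouse pro-B cell lines. The genes were Cyp4f18, Cyp2c55, Akr1c12, Akr1c13, Ptgr1, Alox5, Alox5ap, Lta4h, Ptgs1 and Ptgs2, out of 23929 gene symbols in the files. The set was put together because 3 of them, Cyp4f18, Cyp2c55 and Akr1c12, switched between lines in these same libraries. Their levels are therefore given as a description with no test, and the other 7 genes were the ones open to testing. Of those 7, Akr1c13 is a near copy of the chosen Akr1c12, so its tests are not independent of the choice. The 10 genes lie on 9 chromosomes.

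Poly(A) RNA was profiled in 8 libraries from untreated lines of bone marrow origin and 129SV strain, with 2 libraries per line. CBE-1 and CBE-2 stand for the pair of lines labelled CBE-/- (1) and CBE-/- (2), with the genotype IGCR1-/-. They lack CTCF-binding elements in IGCR1, a control region of the immunoglobulin heavy chain locus. The Eµ-/- line lacks the intronic enhancer of that locus, and the WT line is labelled wild type. Pro-B cells are B cell precursors that rearrange this locus. All 4 lines were grown in RPMI medium with serum and 2-mercaptoethanol. The Eµ deletion and the WT state are each represented by 1 line and the CBE deletion by 2, so an effect of the genotype and a property of the line cannot be told apart. Whether the replicates of a line are separate cultures is not stated in the labels. The p-values then measure only the spread between these libraries, which may be technical.

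In cells, phospholipases release arachidonic acid from membranes and separate enzyme branches then act on it. The cyclooxygenases Ptgs1 and Ptgs2 start the prostaglandins and thromboxane. The 5-lipoxygenase Alox5, helped by the membrane protein Alox5ap, starts the leukotrienes, and Lta4h makes leukotriene B4. Cytochrome P450 enzymes oxidise arachidonic acid or inactivate leukotriene B4, and reductases such as Ptgr1 and the aldo-keto reductases break mediators down. These branches are best known from myeloid cells, platelets, liver and gut epithelium.

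Levels are FPKM, the read number scaled by transcript length and by the reads mapped in that library. The files imply 31.3 to 49.5 M reads per library, and 9808 to 10043 symbols reached 1 FPKM in a library. Libraries of the same line correlated at 0.978 or more, and libraries of different lines at 0.964 or less, on the log2(FPKM + 1) scale. All 8 B lineage markers examined were expressed, with summed levels of 3536 to 3954 FPKM in CBE-1, 2899 to 3080 in CBE-2, 3438 to 3652 in the Eµ-/- line and 2660 to 3254 in WT. Of 17 myeloid and granulocyte markers 16 were in the files, with summed levels of 6.01 to 12.7 FPKM in CBE-1, 3.34 to 4.04 in CBE-2, 4.48 to 5.39 in the Eµ-/- line and 5.86 to 10.7 in WT. Between 6 and 10 of these were listed at 0 in a line, and Lyz2 was the most abundant. The 7 mast cell and basophil markers were listed at 0 throughout. The summed T and NK markers stayed at or below 0.279 FPKM, the epithelial and hepatic markers at or below 0.645 FPKM and the stromal markers at or below 0.0382 FPKM. In RNA from a whole culture, fewer cells that express a gene and less RNA per cell cannot be told apart.

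**Figure D1:**
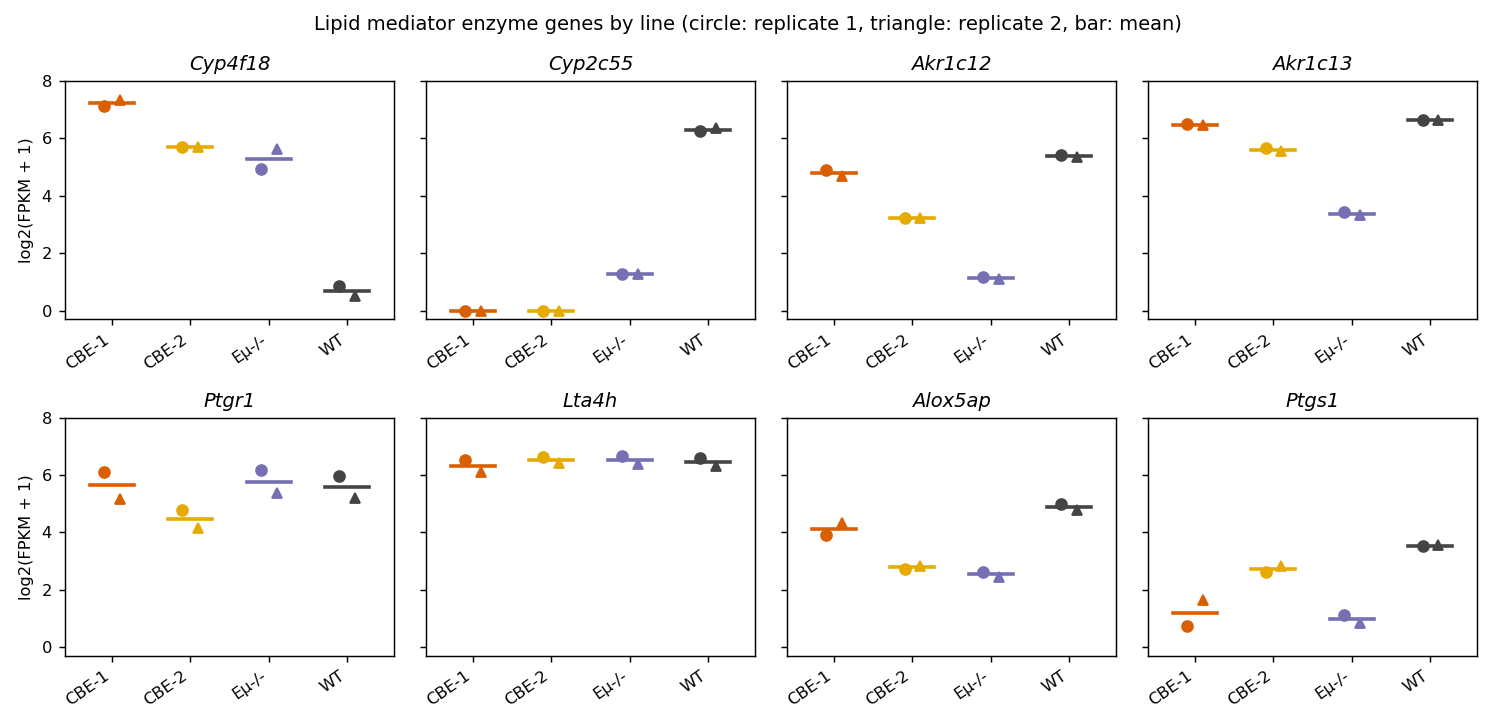
Level of the 8 expressed genes in every library, as log2(FPKM + 1) on the vertical axis, with the lines along the horizontal axis. Circles are replicate 1, triangles are replicate 2 and bars are the mean of the pair. Cyp4f18 is near the bottom in WT, Cyp2c55 is high in WT, the Akr1c genes are lowest in the Eµ-/- line, and Lta4h is level across the lines.

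Cyp4f18 encodes a mouse P450 of the Cyp4f family that hydroxylates leukotriene B4 and so inactivates it. It lies at chr8:74512381-74533525 in mm9, the build of the files. Its level was 139.9 and 160.4 FPKM in the libraries of CBE-1, 51.1 and 50.4 FPKM in CBE-2, and 29.6 and 49.0 FPKM in the Eµ-/- line, against 0.816 and 0.416 FPKM in WT. Every library of the 3 mutant lines lay far above both WT libraries, and the WT values rest on about 111 and 34.7 reads. The mean was 244-fold higher in CBE-1, 82.4-fold higher in CBE-2 and 63.8-fold higher in the Eµ-/- line than in WT. CBE-1 stood 2.96-fold above CBE-2. CBE-2 and the Eµ-/- line did not overlap, but their means of 50.7 and 39.3 FPKM differed by less than the SD of 13.7 FPKM between the Eµ-/- libraries.

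Cyp2c55, at chr19:39081509-39117177 in mm9, encodes a mouse P450 of the Cyp2c family that hydroxylates and epoxidises arachidonic acid. It had the opposite order, being listed at 0 FPKM in both libraries of CBE-1 and both of CBE-2. It had 1.43 and 1.41 FPKM in the Eµ-/- line, against 74.9 and 81.2 FPKM in WT. In the CBE libraries 3 reads would have been worth 0.0225 to 0.0312 FPKM. The Eµ-/- values rest on about 152 and 143 reads, and the mean there was 1.82% of that in WT. None of the 3 mutant lines overlapped WT.

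The start regions of this pair of P450 genes are printed because their RNAs differed most between the lines. Both sequences run from 250 bases before to 50 bases after the RefSeq start, on GRCm38.p6, a later build than that of the files. Cyp4f18 is at chr8:72009577-72009876 on the minus strand and Cyp2c55 at chr19:39006769-39007068 on the plus strand. Capitals mark the E box CAGCTG in Cyp4f18 and the TATA box TATAAA in Cyp2c55.
Cyp4f18: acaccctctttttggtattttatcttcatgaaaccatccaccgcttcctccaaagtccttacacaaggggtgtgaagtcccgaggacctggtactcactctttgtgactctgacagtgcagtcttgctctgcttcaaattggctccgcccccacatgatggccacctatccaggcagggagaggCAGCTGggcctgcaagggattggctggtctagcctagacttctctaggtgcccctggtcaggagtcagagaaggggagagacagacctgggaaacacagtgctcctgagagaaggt
Cyp2c55: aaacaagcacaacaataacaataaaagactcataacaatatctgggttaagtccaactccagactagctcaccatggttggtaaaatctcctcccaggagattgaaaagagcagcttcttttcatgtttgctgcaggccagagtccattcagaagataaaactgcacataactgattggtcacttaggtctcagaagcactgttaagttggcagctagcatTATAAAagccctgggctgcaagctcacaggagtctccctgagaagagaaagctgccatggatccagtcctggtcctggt
The TATAAA of Cyp2c55 starts at position -29 from the transcript start, and the CAGCTG of Cyp4f18 at position -66. Of 27025 promoters of this length, 14.2% hold TATAAA and 16.1% hold CAGCTG on either strand. Of the 9 followed genes with an entry in that table, Cyp2c55 was the only one with TATAAA and Cyp4f18 the only one with CAGCTG. Cyp4f18 was also the only one to match TGACNNNGC, the core of the antioxidant response element, at position -140, as do 12.5% of all promoters. These matches overlap no other motif searched, and are descriptions of letters, not of binding.

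Akr1c12 and Akr1c13 encode closely related mouse aldo-keto reductases, enzymes of a family that interconverts ketones and alcohols of steroids, prostaglandins and other lipids. Akr1c12 lies at chr13:4267418-4278645 and Akr1c13 at chr13:4190433-4204849 in mm9. Akr1c12 had 28.6 and 24.8 FPKM in CBE-1, 8.46 and 8.46 FPKM in CBE-2, and 1.25 and 1.14 FPKM in the Eµ-/- line, against 42.4 and 40.0 FPKM in WT. No 2 lines overlapped, and the means were 64.8% of WT in CBE-1, 20.5% in CBE-2 and 2.90% in the Eµ-/- line.

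Akr1c13 was more abundant but followed the same order of lines. It had 89.0 and 87.2 FPKM in CBE-1, 49.5 and 46.1 FPKM in CBE-2, and 9.78 and 9.06 FPKM in the Eµ-/- line, against 99.1 and 98.7 FPKM in WT. The lines did not overlap, although CBE-1 came close to WT. With limma across all genes, Akr1c13 fell by 3.26 on the log2(FPKM + 1) scale in the Eµ-/- line against WT (SE 0.086, adjusted p = 3.1e-06). It fell by 1.04 in CBE-2 against WT (SE 0.086, limma adjusted p = 0.000286). The difference of CBE-1 from WT was -0.17 and did not pass (SE 0.086, limma adjusted p = 0.240). Akr1c13 was higher in CBE-1 than in CBE-2 by 0.87 (limma adjusted p = 0.00149). It exceeded the Eµ-/- line by 3.10 in CBE-1 (limma adjusted p = 6.3e-06) and by 2.23 in CBE-2 (limma adjusted p = 1.7e-05).

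The pair differed in how far it moved. The ratio of Akr1c13 to Akr1c12, per length, was 3.11 and 3.52 in CBE-1, 5.84 and 5.45 in CBE-2, and 7.83 and 7.92 in the Eµ-/- line, against 2.34 and 2.47 in WT. The ratio was lowest in WT and highest in the Eµ-/- line, with no overlap between any 2 lines. The summed level was 117.6 and 112.0 FPKM in CBE-1, 57.9 and 54.6 FPKM in CBE-2, and 11.0 and 10.2 FPKM in the Eµ-/- line, against 141.5 and 138.7 FPKM in WT. The transcripts are near copies, with 68 differing bases among 1260 aligned (94.6% identity). Of their 75-base windows, the length of a read, 205 are found in both, which is 17.3% of each. Reads from such windows cannot be assigned to 1 gene by sequence, so the split between the genes is less certain than their sum. No 75-base window of the other 8 genes is found in another gene's transcript.

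**Figure D2:**
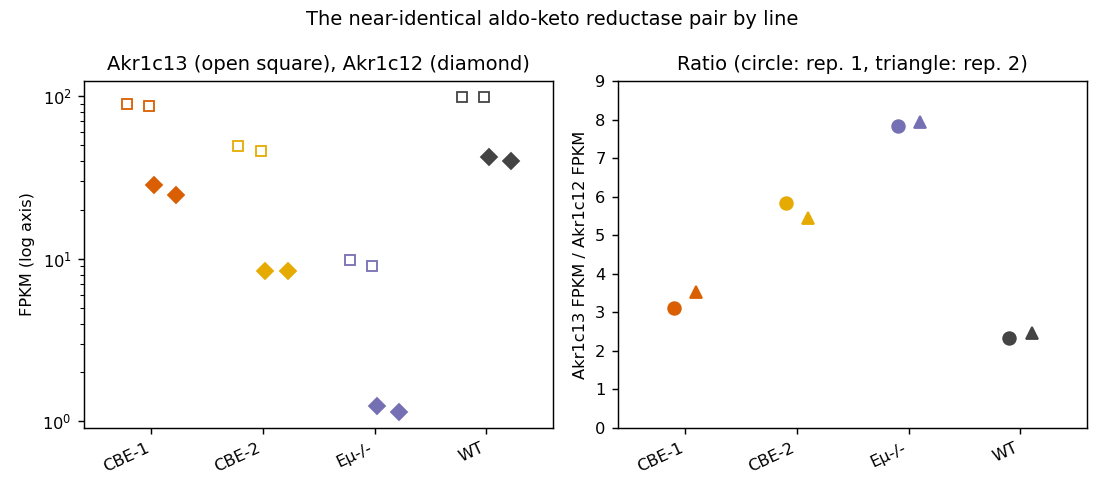
Left, FPKM of Akr1c13 (open squares) and Akr1c12 (diamonds) in every library on a log axis. Right, the ratio of the FPKM of Akr1c13 to that of Akr1c12, with circles for replicate 1 and triangles for replicate 2. Both genes are lowest in the Eµ-/- line, where the ratio reaches 7.92, against 2.34 and 2.47 in WT.

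The start regions of the pair are shown because the genes moved together. They are 95.9% identical, with 284 of 296 aligned bases the same and 4 unpaired bases in each. On GRCm38.p6 the region of Akr1c12 is chr13:4279350-4279649 on the minus strand and that of Akr1c13 is chr13:4190937-4191236 on the plus strand. Capitals mark bases that differ or are unpaired in the alignment.
Akr1c12: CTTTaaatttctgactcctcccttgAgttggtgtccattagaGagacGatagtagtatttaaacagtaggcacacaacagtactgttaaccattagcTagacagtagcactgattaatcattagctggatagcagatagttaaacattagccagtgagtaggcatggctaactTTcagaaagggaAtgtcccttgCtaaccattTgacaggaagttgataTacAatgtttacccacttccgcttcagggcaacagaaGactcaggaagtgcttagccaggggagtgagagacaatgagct
Akr1c13: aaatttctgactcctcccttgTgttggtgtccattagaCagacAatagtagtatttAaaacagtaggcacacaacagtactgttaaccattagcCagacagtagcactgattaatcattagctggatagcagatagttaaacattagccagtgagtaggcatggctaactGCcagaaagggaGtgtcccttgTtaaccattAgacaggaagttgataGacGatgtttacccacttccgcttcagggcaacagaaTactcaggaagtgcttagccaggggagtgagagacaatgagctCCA
Each holds the ETS core GGAAGT at 3 places, of which 1 is on the opposite strand, and none of the capitals falls within it. In Akr1c12 these start at positions -41, -16 and 14 from the transcript start, and in Akr1c13 at -44, -19 and 11. GGAAGT on either strand is common, being present in 24.1% of all promoters of this length, and among the followed genes Ptgs1 holds it too.

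Ptgr1, at chr4:58978462-58999950 in mm9, encodes prostaglandin reductase 1, which inactivates leukotriene B4 and reduces prostaglandin metabolites. Its level was 68.6 and 35.2 FPKM in CBE-1, 26.2 and 16.8 FPKM in CBE-2, and 70.7 and 40.7 FPKM in the Eµ-/- line, against 61.3 and 36.0 FPKM in WT. Replicate 1 was above replicate 2 in every line, by 1.56-fold to 1.95-fold, and both libraries of CBE-2 lay below all others. No difference passed in the limma fit without the replicate number. CBE-2 differed from WT by -1.12 on the log2(FPKM + 1) scale (SE 0.44, limma adjusted p = 0.131). With the replicate number as a block, the same difference had an SE of 0.095 and passed (limma adjusted p = 0.000421). The block also brought the difference of 1.19 between CBE-1 and CBE-2 past the threshold (limma adjusted p = 0.159 without the block and 0.000765 with it). The same held for the difference of -1.31 between CBE-2 and the Eµ-/- line (limma adjusted p = 0.103 without the block and 0.000361 with it). CBE-1 and the Eµ-/- line differed from WT by 0.06 and 0.19, with 95% intervals of -0.98 to 1.10 and -0.85 to 1.23, and neither passed in either limma fit.

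In the leukotriene branch the 3 genes behaved differently from each other. Alox5, the lipoxygenase itself at chr6:116360089-116411196, was listed at 0 FPKM in all 8 libraries. Alox5ap, at chr5:150076634-150099623, presents arachidonic acid to that enzyme. It had 13.9 and 19.1 FPKM in CBE-1, 5.65 and 6.15 FPKM in CBE-2, and 5.20 and 4.45 FPKM in the Eµ-/- line, against 31.1 and 26.4 FPKM in WT. All 6 mutant libraries lay below both WT libraries. It fell by 2.35 on the log2(FPKM + 1) scale in the Eµ-/- line against WT (SE 0.17, limma adjusted p = 0.000173) and by 2.10 in CBE-2 against WT (SE 0.17, limma adjusted p = 0.000233). In CBE-1 it fell by 0.78 against WT (SE 0.17, limma adjusted p = 0.0204). That call was lost when WT replicate 1 (0.134), WT replicate 2 (0.0685) or CBE-1 replicate 1 (0.0742) was left out.

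Alox5ap was higher in CBE-1 than in CBE-2 by 1.33 (SE 0.17, limma adjusted p = 0.00397) and than in the Eµ-/- line by 1.58 (SE 0.17, limma adjusted p = 0.00183). The difference of CBE-2 from the Eµ-/- line was 0.25, with a 95% interval of -0.15 to 0.64, and did not pass (limma adjusted p = 0.384). Its order from low to high was thus the Eµ-/- line, CBE-2, CBE-1 and WT, with the lowest 2 not told apart. The summed myeloid markers were also lower in CBE-2 and the Eµ-/- line than in WT, at a few FPKM in all, and Lyz2 was below both WT values there. In CBE-1 their sum, 6.01 to 12.7 FPKM, overlapped that of WT, 5.86 to 10.7 FPKM. Prtn3 had 0.241 to 0.538 FPKM in the mutant libraries, against 1.16 and 0.902 FPKM in WT. Fcgr1 had 0.0149 to 0.0741 FPKM in them, against 0.702 and 0.392 FPKM in WT. Other markers of that list did not follow: Itgam had 1.66 and 1.17 FPKM in CBE-2 and 0.570 and 0.616 FPKM in the Eµ-/- line, against 0.293 and 0.120 FPKM in WT. Cd68 had 1.15 and 1.44 FPKM in CBE-2 and 1.86 and 2.08 FPKM in the Eµ-/- line, against 1.81 and 1.21 FPKM in WT. The part of such cells in the result was not tested.

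Lta4h, at chr10:92916141-92947641, hydrolyses leukotriene A4 to leukotriene B4 and is also an aminopeptidase. It had 90.6 and 67.5 FPKM in CBE-1, 97.6 and 85.6 FPKM in CBE-2, and 101.6 and 82.5 FPKM in the Eµ-/- line, against 96.2 and 79.4 FPKM in WT. The lines overlapped in every pairing, and replicate 1 was above replicate 2 in each. None of the 6 comparisons passed with limma, and the difference from WT was -0.16 in CBE-1, 0.06 in CBE-2 and 0.07 in the Eµ-/- line. The 95% intervals reached from -0.60 to 0.28, from -0.38 to 0.51 and from -0.38 to 0.51, so changes beyond these bounds fall outside them.

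Of the cyclooxygenases, Ptgs2, the inducible form at chr1:151947254-151955142, was listed at 0 FPKM in all 8 libraries. Ptgs1, the constitutive form at chr2:36085946-36107791, was expressed at a low level. It had 0.656 and 2.13 FPKM in CBE-1, 5.09 and 6.18 FPKM in CBE-2, and 1.15 and 0.783 FPKM in the Eµ-/- line, against 10.4 and 10.9 FPKM in WT. WT was highest and CBE-2 next, with no overlap, while CBE-1 and the Eµ-/- line overlapped. Ptgs1 fell by 2.57 on the log2(FPKM + 1) scale in the Eµ-/- line against WT (SE 0.28, limma adjusted p = 0.00127) and its log2 difference in CBE-1 against WT was -2.35 (SE 0.28, limma adjusted p = 0.00183). CBE-2 differed from WT by -0.82 and did not pass (SE 0.28, limma adjusted p = 0.0973). That difference passed when CBE-1 replicate 1 (0.0120) or replicate 2 (0.0122) was left out.

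Ptgs1 separated the CBE lines in the opposite direction to Alox5ap and Akr1c13. It was lower in CBE-1 than in CBE-2 by a log2 difference of -1.54 (SE 0.28, limma adjusted p = 0.0187), a call lost without CBE-2 replicate 1 (0.0941) or replicate 2 (0.142). It was higher in CBE-2 than in the Eµ-/- line by 1.75 (SE 0.28, limma adjusted p = 0.00950). That call was lost without CBE-2 replicate 1 (0.0524), CBE-2 replicate 2 (0.0835) or Eµ-/- replicate 2 (0.0564). CBE-1 differed from the Eµ-/- line by 0.22, which did not pass (limma adjusted p = 0.702).

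Of the 7 genes not used in the choice, 5 passed the filter of 1 FPKM in at least 2 libraries: Akr1c13, Ptgr1, Alox5ap, Lta4h and Ptgs1. Among them, Akr1c13 is a near copy of the chosen Akr1c12 and can share its reads, so its calls are not independent of the choice. Akr1c13 is in every count below except that of CBE-1 against WT. Against WT, 2 of the 5 were called lower in CBE-1, where 8.54% of the 10479 genes tested were called lower and 19.4% were called in either direction. In CBE-2, 2 of the 5 were called lower, where 8.19% of all genes were called lower and 18.7% in either direction. In the Eµ-/- line, 3 of the 5 were called lower, where 10.4% of all genes were called lower and 21.8% in either direction. None of the 5 was called higher against WT in any line, where 10.9%, 10.5% and 11.3% of all genes were called higher in CBE-1, CBE-2 and the Eµ-/- line. The 2 in CBE-1 became 1 without WT replicate 1, WT replicate 2 or CBE-1 replicate 1. Between the CBE lines 3 of the 5 were called, 2 higher and 1 lower in CBE-1, where 10.2% of all genes were called, 5.03% higher and 5.17% lower. Against the Eµ-/- line, 2 of the 5 were called higher and 0 lower in CBE-1, where 10.0% of all genes were called, 6.02% higher and 4.01% lower. In CBE-2 likewise 2 were called higher and 0 lower, where 13.2% of all genes were called, 7.62% higher and 5.62% lower. These last 2 became 1 without CBE-2 replicate 1, CBE-2 replicate 2 or Eµ-/- replicate 2. The comparisons with WT share the WT libraries and so are not independent of each other.

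**Figure D3:**
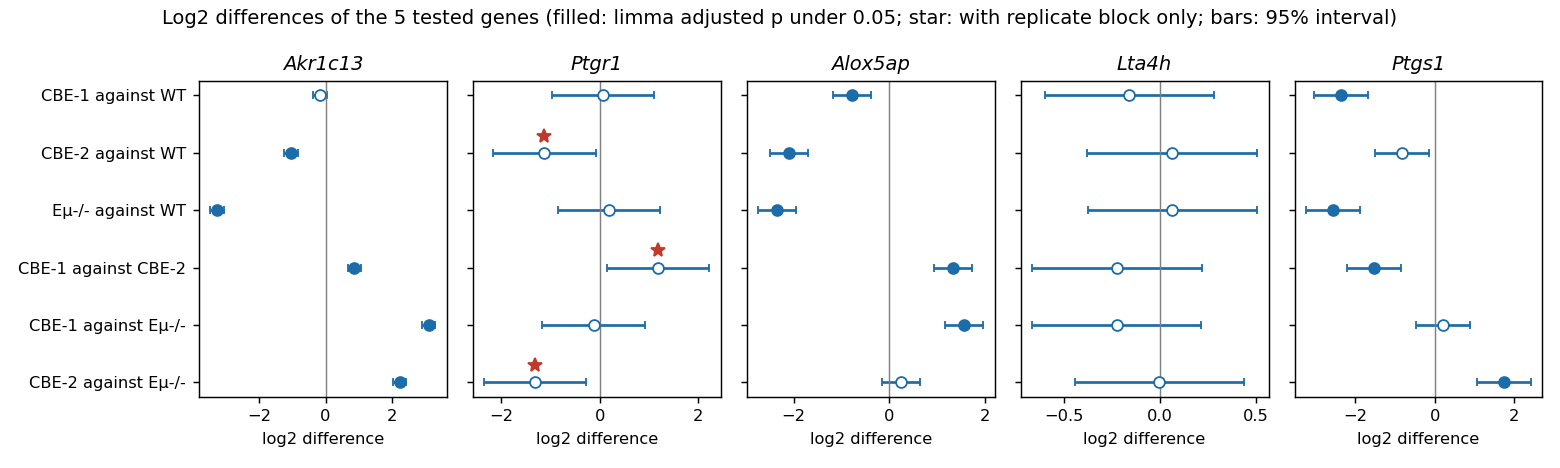
Log2 difference (first line minus second, log2(FPKM + 1) scale) of the 5 tested genes in 6 comparisons, with 95% intervals. The horizontal scales differ between panels. Filled circles passed the limma threshold, and stars mark the 3 Ptgr1 differences that passed it only with the replicate block.

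With the replicate number as a block the called counts of these 5 genes became 2 in CBE-1, 3 in CBE-2 and 3 in the Eµ-/- line against WT, in backgrounds of 30.0%, 28.8% and 34.0% of all genes. Over all genes the block raised the calls to 3142, 3013 and 3563 in these comparisons, against 2033, 1960 and 2284 without it. Between the CBE lines it gave 4 of the 5, in a background of 16.6% (1736 genes, against 1069 without the block). Against the Eµ-/- line it gave 2 in CBE-1, in a background of 17.0% (1780 genes, against 1051), and 3 in CBE-2, in a background of 23.3% (2445 genes, against 1387).

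The wider pathway was represented by 125 other genes in 6 lists by role, of which 124 symbols were in the files. Of these, 29 were listed at 0 in every library and 44 passed the filter. Against WT, 15 of the 44 were called in CBE-1 (9 higher, 6 lower), 16 in CBE-2 (9 higher, 7 lower) and 15 in the Eµ-/- line (7 higher, 8 lower). Over all genes tested 19.4%, 18.7% and 21.8% were called in these comparisons. With the replicate block the counts were 21 (10 higher, 11 lower), 19 (11 higher, 8 lower) and 22 (10 higher, 12 lower). The shares over all genes were then 30.0%, 28.8% and 34.0%. The median log2 difference of the 44 was -0.02 in CBE-1, 0.08 in CBE-2 and -0.14 in the Eµ-/- line, beside 0.02, 0.04 and 0.01 over all genes tested. For CBE-2 the count fell to 8 when WT replicate 1 was left out and to 9 when WT replicate 2 was, and leaving out replicate 1 or 2 of CBE-2 gave 8 and 7. For the Eµ-/- line the count fell to 8 with WT replicate 1 left out and to 9 with WT replicate 2 left out. Between CBE-1 and CBE-2, 6 were called (1 higher, 5 lower), where 10.2% of all genes were, and this fell to 3 when CBE-1 replicate 1 or either library of CBE-2 was left out. Against the Eµ-/- line 11 were called in CBE-1 (7 higher, 4 lower) and 15 in CBE-2 (10 higher, 5 lower), where 10.0% and 13.2% of all genes were called. The 15 fell to 9 without CBE-2 replicate 1 and to 8 without replicate 2.

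Among 10 tested phospholipases and lipases, 3 were called higher and 1 lower than WT in each CBE line, and 2 higher and 0 lower in the Eµ-/- line. Over all genes 10.9%, 10.5% and 11.3% were called higher in CBE-1, CBE-2 and the Eµ-/- line, and 8.54%, 8.19% and 10.4% lower. These shares also stand beside the counts of the role lists that follow. Pla2g7, the hydrolase that inactivates platelet-activating factor, had the largest difference of the 44 genes. It had 30.6 and 36.9 FPKM in CBE-1, 28.5 and 34.6 FPKM in CBE-2, and 1.91 and 2.41 FPKM in the Eµ-/- line, against 1.65 and 0.910 FPKM in WT. The libraries of both CBE lines stood apart from the others, and the log2 difference from WT was 3.94 in CBE-1 (limma adjusted p = 3.8e-05) and 3.85 in CBE-2 (limma adjusted p = 3.3e-05). Abhd6, which hydrolyses the endocannabinoid 2-arachidonoylglycerol, had 0.649 and 1.01 FPKM in CBE-1 and 2.50 and 2.65 FPKM in CBE-2. It was listed at 0 in the Eµ-/- line and had 0.0121 and 0.00954 FPKM in WT, and it rose in both CBE lines against WT (0.85 and 1.82, limma adjusted p = 0.00273 and 7.3e-05). Abhd6 reached 1 FPKM in CBE libraries alone and so passed the filter only through the lines where it was high. The secreted phospholipase Pla2g12a had 22.8 and 20.3 FPKM in CBE-1, 16.6 and 14.5 FPKM in CBE-2, and 22.7 and 23.3 FPKM in the Eµ-/- line, against 10.8 and 9.06 FPKM in WT. It rose in CBE-1 (1.05, limma adjusted p = 0.00163) and in the Eµ-/- line (1.14, limma adjusted p = 0.00115). Pla2g12a was called higher in CBE-2 too (0.60, limma adjusted p = 0.0169), a call lost without WT replicate 2 or either CBE-2 library.

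Pla2g16, a membrane phospholipase and acyltransferase, fell by 1.53 in CBE-2 against WT (limma adjusted p = 0.00101), with 2.02 and 1.58 FPKM in CBE-2, against 7.77 and 6.36 FPKM in WT. Napepld, which makes precursors of the N-acylethanolamines, fell in CBE-1. It had 0.279 and 0.341 FPKM there, against 1.45 and 1.27 FPKM in WT, a log2 difference of -0.85 (limma adjusted p = 0.00106). Faah, which breaks N-acylethanolamines down, had 1.38 and 1.35 FPKM in the Eµ-/- line, against 0.388 and 0.177 FPKM in WT. It reached 1 FPKM in the Eµ-/- libraries alone and so passed the filter only through the line where it was high. Its log2 difference of 0.89 (limma adjusted p = 0.00149) is given with that limit, and with no filter the limma adjusted p was 0.00157. Without either Eµ-/- library Faah was not tested, and 1 gene of this list was then called in that line.

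Of 11 tested genes that supply or re-esterify arachidonic acid, 3 were called higher and 1 lower in CBE-1 against WT, 2 higher and 1 lower in CBE-2, and 1 higher and 3 lower in the Eµ-/- line. Lpcat2 alone was called in each of the 3 lines when WT replicate 1 was left out. It was also the only one called in CBE-1 without WT replicate 2 or either CBE-2 library, and in CBE-2 without CBE-2 replicate 2. The 4 in CBE-1 became 2 without CBE-1 replicate 1, and the 4 in the Eµ-/- line became 2 without WT replicate 2. Lpcat2, an acyltransferase that also makes platelet-activating factor, was listed at 0 in both WT libraries. It had 1.34 and 1.79 FPKM in CBE-1, 3.61 and 3.86 FPKM in CBE-2 and 1.29 and 1.88 FPKM in the Eµ-/- line, and rose in all 3 lines against WT (limma adjusted p = 0.000963, 8.5e-05 and 0.000971). Lpcat2 reached 1 FPKM in the mutant libraries alone and so passed the filter only through the lines where it was high. The desaturase Fads2 had 32.6 and 19.6 FPKM in the Eµ-/- line, against 80.8 and 63.7 FPKM in WT. It fell by 1.47 in that comparison (SE 0.27, limma adjusted p = 0.0110), a call lost without WT replicate 1 (0.0806).

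Among 7 tested genes of the list of prostanoid enzymes and aldo-keto reductases, none was called higher than WT in any line. Of these, 1 was called lower in CBE-1, 3 in CBE-2 and 2 in the Eµ-/- line. Over all genes 8.54%, 8.19% and 10.4% were called lower. Akr1e1 alone was called in CBE-2 and in the Eµ-/- line when either WT library or either CBE-2 library was left out, and in the Eµ-/- line also without either Eµ-/- library. In CBE-1 the count became 2, with Ptges2, without CBE-1 replicate 1 or either Eµ-/- library. The aldo-keto reductase Akr1e1 was called lower in all 3, with 8.72 and 11.3 FPKM in CBE-1, 9.45 and 10.9 FPKM in CBE-2, and 7.61 and 7.15 FPKM in the Eµ-/- line, against 20.0 and 20.4 FPKM in WT. Its log2 differences were -0.95, -0.92 and -1.34 (limma adjusted p = 0.00392, 0.00430 and 0.000897). Akr1e1 is in the list as an aldo-keto reductase, and whether it acts on prostanoids was not tested. Only 3 genes of the leukotriene and lipoxygenase list passed the filter, and 2 of them fell in the Eµ-/- line against WT while none was called in either CBE line. Mgst2, a microsomal glutathione transferase that can conjugate leukotriene A4, had 69.7 and 89.2 FPKM in the Eµ-/- line, against 188 and 176 FPKM in WT (-1.20, limma adjusted p = 0.00232). Mgst3, of the same family, had 2.87 and 1.84 FPKM in the Eµ-/- line, against 13.5 and 9.93 FPKM in WT (-1.92, limma adjusted p = 0.00159). Both were also lower in the Eµ-/- line than in each CBE line, with CBE-2 higher by 1.54 for Mgst2 (limma adjusted p = 0.00105) and by 1.66 for Mgst3 (limma adjusted p = 0.00418).

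Of 36 P450 and epoxide hydrolase genes 13 were listed at 0 in all libraries and 5 passed the filter. Against WT, 1 was called higher and 2 lower in CBE-1, 0 higher and 1 lower in CBE-2, and 1 higher and 1 lower in the Eµ-/- line. Cyp2j9, a mouse P450 of an arachidonate-oxidising family, had 3.12 and 3.62 FPKM in CBE-1, 0.858 and 0.921 FPKM in CBE-2, and 3.96 and 9.70 FPKM in the Eµ-/- line, against 0.0127 and 0.00994 FPKM in WT. It rose in CBE-1 (2.11, limma adjusted p = 0.00482) and in the Eµ-/- line (2.85, limma adjusted p = 0.00134). Cyp2j9 reached 1 FPKM in the libraries of these lines alone and so passed the filter only through the lines where it was high. Cyp4f16, of the same family as Cyp4f18, fell in CBE-1, with 4.55 and 4.65 FPKM, against 12.1 and 11.3 FPKM in WT (-1.18, limma adjusted p = 0.000283).

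Among 8 tested receptors and transporters, 2 were called higher and 1 lower in CBE-1 against WT, 4 higher and 1 lower in CBE-2, and 3 higher and 0 lower in the Eµ-/- line. The 5 in CBE-2 became 2 without WT replicate 1 or either CBE-2 library and 3 without WT replicate 2. The 3 in the Eµ-/- line became 1, Gpr132, without either WT library. Gpr132, a receptor for oxidised fatty acids, was the one called lower in both CBE lines, and it was called higher in the Eµ-/- line. It had 0.0592 and 0.0588 FPKM in CBE-1, 0.588 and 0.578 FPKM in CBE-2, and 5.39 and 5.47 FPKM in the Eµ-/- line, against 1.58 and 1.25 FPKM in WT. The log2 difference from WT was -1.19 in CBE-1 (limma adjusted p = 0.000324) and 1.42 in the Eµ-/- line (limma adjusted p = 0.000150). In CBE-2 it was -0.61 (limma adjusted p = 0.00621), a call lost without WT replicate 1 or either CBE-2 library. CBE-1 lay below the Eµ-/- line by -2.60 (limma adjusted p = 1.9e-05). Abcc1, an exporter of leukotriene C4, had 2.31 and 1.76 FPKM in CBE-1 and 2.39 and 2.23 FPKM in CBE-2, against 0.0135 and 0 FPKM in WT (1.59 and 1.72, limma adjusted p = 0.000218 and 0.000131). With 0.805 and 0.595 FPKM it was called higher in the Eµ-/- line too (0.75, limma adjusted p = 0.00608), a call lost without either WT library. Abcc1 reached 1 FPKM in the CBE libraries alone and so passed the filter only through the lines where it was high. The thromboxane receptor Tbxa2r rose in CBE-2, with 5.58 and 4.86 FPKM, against 2.52 and 1.67 FPKM in WT (1.02, limma adjusted p = 0.00426). With 4.46 and 3.96 FPKM it was called higher in CBE-1 too (0.76, limma adjusted p = 0.0146), a call lost without WT replicate 2 or CBE-1 replicate 1.

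**Figure D4:**
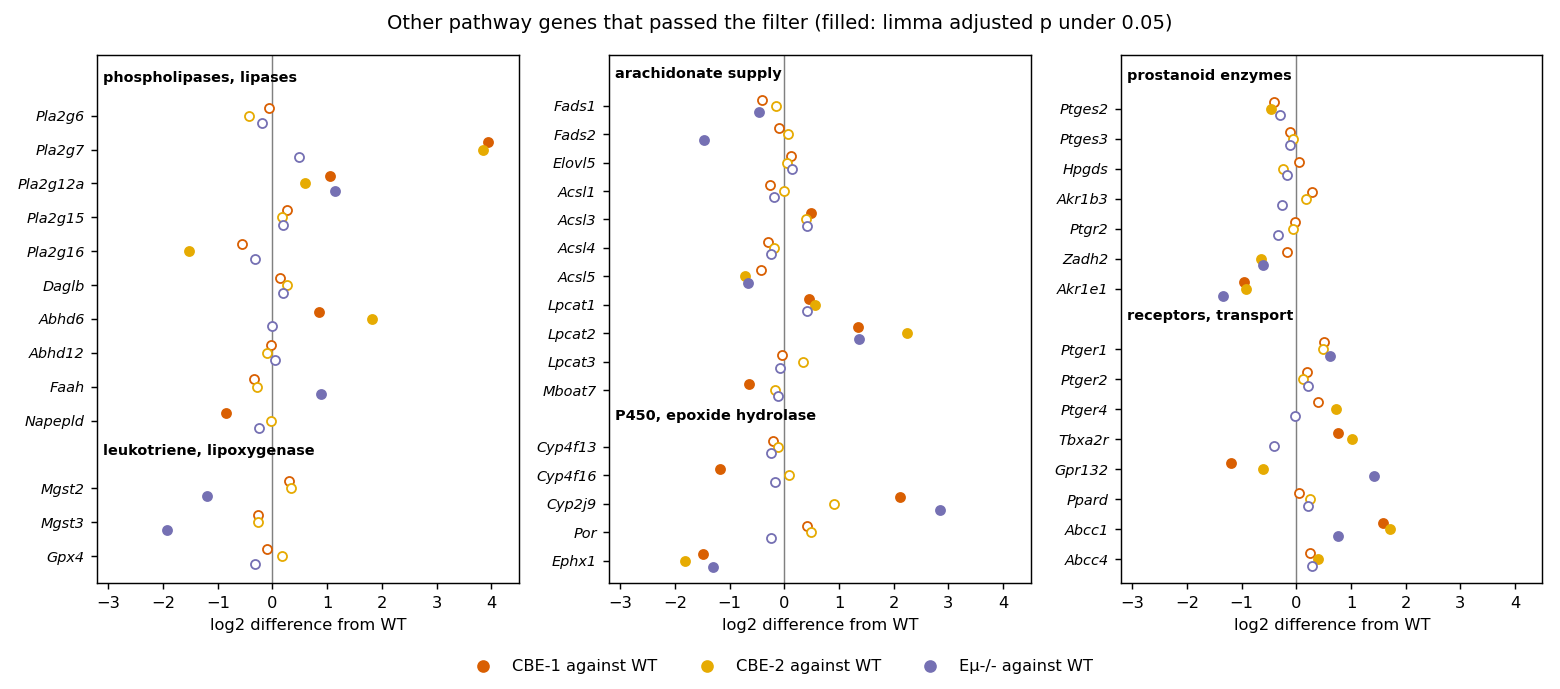
Log2 difference from WT, on the log2(FPKM + 1) scale, of the 44 pathway genes that passed the filter, grouped by role. Colours mark the line and filled circles passed the limma threshold. Pla2g7 lies near 4 in both CBE lines, and filled circles lie on both sides of 0 in most groups.

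The genes with the pattern most like each of the 3 chosen genes were ranked by the root mean square difference of log2(FPKM + 1), each gene centred on its own mean, over the 8 libraries. Cyp4f18, whose own spread by this measure was 2.45, was nearest to Ctnna1 (0.52), Fam92a (0.75) and Wbp5 (0.77). Ctnna1 had 39.2 and 35.6 FPKM in CBE-1, 24.0 and 20.2 FPKM in CBE-2, and 14.2 and 14.8 FPKM in the Eµ-/- line, against 0.0190 and 0.0199 FPKM in WT. Cyp2c55, with a spread of 2.60, was nearest to Sox15 (0.99), Ccr2 (1.00) and Lgals3bp (1.06), all far higher in WT than in the other lines. Akr1c12, with a spread of 1.65, was nearest to its copy Akr1c13 (0.45), then Slc7a7 (0.46) and Gstt2 (0.58). Slc7a7, an amino acid transporter subunit, had 6.19 and 7.04 FPKM in CBE-1, 1.81 and 1.85 FPKM in CBE-2, and 0.210 and 0.369 FPKM in the Eµ-/- line, against 10.7 and 13.9 FPKM in WT. Apart from Akr1c13, none of these lies on the chromosome of the gene it resembles.

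Genes within 250 kb of the 3 chosen genes differed in whether they moved. Of 13 neighbours of Cyp4f18, 11 passed the filter, and 5 were called higher than WT in CBE-1, 7 in CBE-2 and 5 in the Eµ-/- line, with 0 called lower in each. Over all genes 10.9%, 10.5% and 11.3% were called higher in these comparisons. The counts rest on single libraries. The 7 in CBE-2 became 1, Tpm4, without WT replicate 1 or either CBE-2 library, and 2 without WT replicate 2. The 5 in CBE-1 became 3 without either WT library, 2 without CBE-1 replicate 1 and 1 without CBE-1 replicate 2. The 5 in the Eµ-/- line became 2 without WT replicate 2, CBE-1 replicate 2 or Eµ-/- replicate 2, and 3 without WT replicate 1, CBE-1 replicate 1 or either CBE-2 library. Olfr372 and Olfr373 reached 1 FPKM in the CBE-1 libraries alone and so passed the filter only through the line where they were high. Tpm4, a tropomyosin gene 125.7 kb away, averaged 106.4 ± 10.4 FPKM in CBE-1, 86.0 ± 5.39 FPKM in CBE-2 and 93.1 ± 1.38 FPKM in the Eµ-/- line, against 39.1 ± 0.550 FPKM in WT (SD, n = 2 each). It rose by 1.42, 1.12 and 1.23 (limma adjusted p = 0.000172, 0.000442 and 0.000333), and kept these calls in every alternative. The olfactory receptor gene Olfr372, 48.0 kb away, averaged 2.33 ± 0.374 FPKM in CBE-1, 0.499 ± 0.066 FPKM in CBE-2 and 0.748 ± 0.124 FPKM in the Eµ-/- line, against 0.0358 ± 0.0356 FPKM in WT (SD, n = 2 each). Its log2 difference from WT was 1.68 in CBE-1 (limma adjusted p = 0.000132), and 0.000337 with no filter. Without CBE-1 replicate 1 or replicate 2 it was not tested. The calls in CBE-2 (0.53, limma adjusted p = 0.0188) and the Eµ-/- line (0.75, limma adjusted p = 0.00476) were lost without WT replicate 2, and the first also without WT replicate 1 or either CBE-2 library. The order of the lines for Olfr372 was CBE-1 first and WT last, as for Cyp4f18, while CBE-2 and the Eµ-/- line changed places. Olfr373, 90.1 kb away, had a log2 difference of 1.31 in CBE-1 under the same limit (limma adjusted p = 0.00139, and 0.00355 with no filter). Zfp882, 69.6 kb away on the other side, rose in the Eµ-/- line (0.77, limma adjusted p = 0.00398). It was called higher in CBE-1 (0.68, limma adjusted p = 0.00657) and CBE-2 (0.52, limma adjusted p = 0.0190) too, and both calls were lost without either WT library. Zfp882 averaged 1.04 FPKM in CBE-1, 0.825 in CBE-2, 1.18 in the Eµ-/- line and 0.273 in WT. It thus passed the filter only through lines where it was high.

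**Figure D5:**
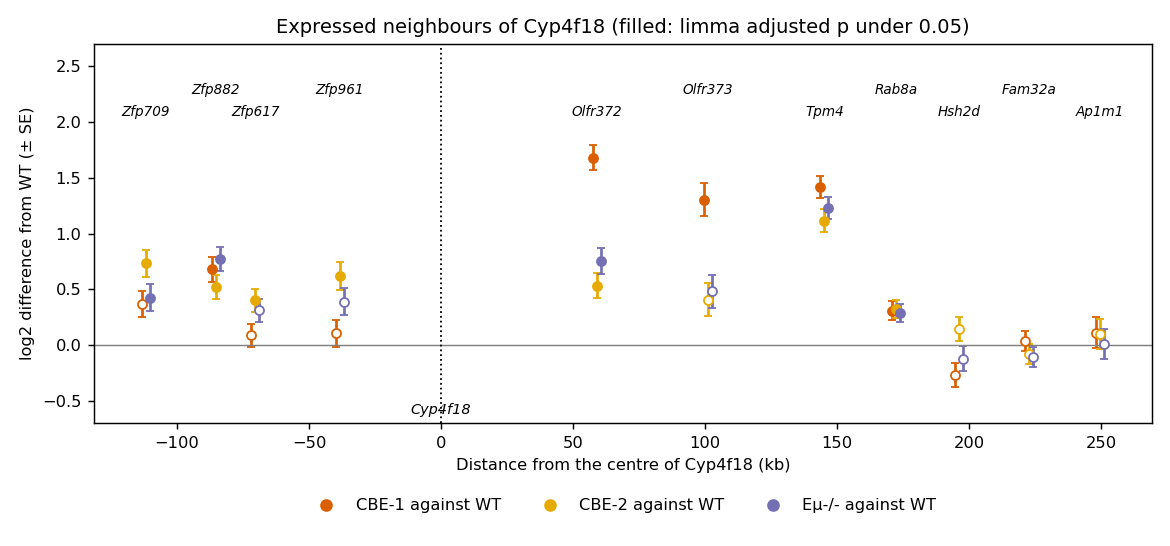
Log2 difference from WT (± SE) of the 11 neighbours of Cyp4f18 that passed the filter, by distance in kb from the centre of Cyp4f18, which is marked by the dotted line and not itself plotted. Filled circles passed the limma threshold. All filled circles lie above 0, and Tpm4 is filled in all 3 lines.

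Around Cyp2c55, 2 of 8 neighbours passed the filter, Noc3l and Hells, and 3 were listed at 0 in all libraries. Noc3l averaged 10.1 ± 1.69 FPKM in CBE-1, 11.0 ± 0.121 FPKM in CBE-2 and 10.1 ± 1.84 FPKM in the Eµ-/- line, against 14.5 ± 0.647 FPKM in WT (SD, n = 2 each). Neither gene was called against WT in any line (limma adjusted p = 0.0655 for the lowest, Noc3l in the Eµ-/- line). The Cyp2c genes next to Cyp2c55 stayed at or near 0 in WT, where Cyp2c65 averaged 0.00498 FPKM and Cyp2c66 and Cyp2c29 were listed at 0. Around Akr1c12, Akr1c13 alone of 7 neighbours passed the filter. Akr1c14, Akr1c18, Akr1c6 and Akr1c20 were listed at 0 in all libraries, and Akr1c19 averaged 0.00637 FPKM in CBE-1 and was listed at 0 elsewhere.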

How the data were processed

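RNA was measured in 8 libraries, made per the labels' protocols with the TruSeq stranded mRNA kit and sequenced on an Illumina NextSeq as single 75-base reads. The authors deposited FPKM per gene with an interval and a status, per the file headers. TopHat, Cufflinks and mm9 are named per the submitters' processing notes. The sources used here do not give versions, settings or the use of strand in counting. FPKM of a symbol at several loci were summed (277 symbols), and 21 symbols whose status was not OK were left out. The read number behind each value was worked out from its interval, read as 2 SD either way. Of low values, 56.1% came out whole within 0.01, so no count test was run. Reads and floors of 3 reads cover counting error only.

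Genes with 1 FPKM or more in at least 2 libraries (10479) were tested with limma 3.58.1 (R 4.3.3) on log2(FPKM + 1), using a mean-variance trend, 1 spread for all 4 lines (4 residual and 2.65 prior degrees of freedom), 6 comparisons, Benjamini-Hochberg adjustment over all genes and a threshold of 0.05. The log2 scale with a pseudocount of 1 understates changes of low genes. Genes low in WT, such as Lpcat2, Cyp2j9, Abhd6, Abcc1 and Zfp882, passed the filter only through lines where they were high. The 95% intervals are not adjusted for the number of genes. The fit was tested on simulated data. The labels number the replicates and do not state a pairing across lines. Deviations of same-numbered libraries correlated at 0.279 to 0.502 in all 6 pairs of lines. The main fit leaves the replicate number out, and the fit with it as a block is given as an alternative. Sequences and transcripts came from RefSeq (GRCm38.p6) and GENCODE (GRCm38), and 9 of the 10 genes had a promoter entry.

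Named genes were the 10 members, up to 4 called genes per role list and comparison with no overlap between libraries, the 3 nearest patterns, and neighbours within 250 kb that passed the filter. Of the called genes, the text gives mainly those whose calls held in every alternative. The Cyp2c and Akr1c neighbours below the filter were named after their values were seen. The genes, lists and markers were chosen with earlier results of these data known. Alternatives were a pseudocount of 0.1, no filter, a mean of 5 FPKM or more, median-of-ratios scaling, a replicate block and each library left out.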

Additional observations from a re-analysis of the deposited data

Results flagged for a closer look

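The 2 lines that carry the CBE deletion differed from each other, by the test of the difference itself (CBE-1 minus CBE-2, log2(FPKM + 1) scale, limma adjusted p in brackets), in 12 genes. These were 3 of the 5 tested followed genes, 6 of the 44 tested pathway genes and 3 of the 11 tested neighbours of Cyp4f18. Over all genes tested 10.2% were called between these lines. Of the followed genes, Akr1c13 was higher in CBE-1 by 0.87 (0.00149) and Alox5ap by 1.33 (0.00397), and both libraries of CBE-1 lay above both of CBE-2. Ptgs1 differed by -1.54 (0.0187), in the opposite direction.

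Of the pathway genes, Cyp4f16 differed by -1.27 (0.000396), Abhd6 by -0.97 (0.00273), Lpcat2 by -0.89 (0.0108), Napepld by -0.82 (0.00233) and Gpr132 by -0.58 (0.0132), each lower in CBE-1. Pla2g16 was higher in CBE-1 by 0.96 (0.0146). When single CBE libraries were left out, the calls of Ptgs1, Lpcat2, Gpr132 and Pla2g16 were lost and those of Akr1c13, Alox5ap, Cyp4f16, Abhd6 and Napepld were kept. Of the neighbours of Cyp4f18, Olfr372 was higher in CBE-1 by 1.15 (0.00146) and Olfr373 by 0.90 (0.0122), but both passed the filter only through CBE-1. Zfp961, a zinc finger gene, differed by -0.52 (0.0458). Olfr372 and Olfr373 were not tested without either CBE-1 library, and Zfp961 lost its call without any 1 of the 4 CBE or 2 WT libraries. Without CBE-2 replicate 1 or replicate 2 the call of Olfr373 was lost and that of Olfr372 was kept. What else separates these lines, beside the deletion they share, is not given in the labels.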

How the results depend on the processing

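Among the 5 tested followed genes, 357 values under an alternative kept direction and side of the threshold, 8 lost a call, 5 gained one and 14 changed sign, of which none was called. With a mean of 5 FPKM or more, the followed genes called were 1, 2 and 2 in CBE-1, CBE-2 and the Eµ-/- line against WT, 2 between the CBE lines, and 2 and 1 in CBE-1 and CBE-2 against the Eµ-/- line, since Ptgs1 fell out of the test. Under that filter, which tests fewer genes, the pathway genes called were 6, 8 and 7 in CBE-1, CBE-2 and the Eµ-/- line against WT, 1 between the CBE lines, and 5 and 6 in CBE-1 and CBE-2 against the Eµ-/- line. All genes called in the same order were 1056, 1023, 1304, 369, 407 and 567. Between the CBE lines the pathway genes called were 10 with no filter and 10 with the replicate block. With the replicate block, all genes called were 3142, 3013, 3563, 1736, 1780 and 2445, and beside Ptgr1 it changed no call of the followed genes. The cause of the other shifts was not tested.

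With single libraries left out, the followed genes called ranged, in the same order, from 1 to 2, 2 to 3, 3 to 3, 2 to 3, 2 to 2 and 1 to 2. The pathway genes called ranged from 10 to 19, 7 to 18, 8 to 16, 3 to 8, 10 to 12 and 8 to 15, and all genes from 784 to 2610, 837 to 2524, 784 to 3260, 259 to 1373, 692 to 1588 and 432 to 2367. A line left with 1 library was assumed to vary like the others. The lowest counts over all genes came without WT replicate 2 for CBE-1 and the Eµ-/- line against WT, without CBE-1 replicate 2 for CBE-1 against the Eµ-/- line, and without CBE-2 replicate 2 for the others. Uncalled differences that changed sign did so only here. For Ptgr1 they ranged from -0.41 to 0.54 in CBE-1 against WT, -0.20 to 0.58 in the Eµ-/- line against WT, and -0.60 to 0.35 in CBE-1 against the Eµ-/- line. For Lta4h they ranged from -0.37 to 0.052 in CBE-1 against WT, -0.073 to 0.20 in CBE-2 against WT, -0.083 to 0.21 in the Eµ-/- line against WT, and -0.15 to 0.15 in CBE-2 against the Eµ-/- line. For Ptgs1 they ranged from -0.24 to 0.68 in CBE-1 against the Eµ-/- line.

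Of 76 calls of pathway genes that the naming rule took, 46 held in every alternative that tested them, and of 198 values of called neighbours under an alternative 144 kept their call. Depth limits the genes listed at 0 to under the level of 3 reads, and 2 libraries a line limit every spread.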
